A study of Mus musculus with 8 samples.

Results

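The genes described here are 33 genes of the unfolded protein response and of protein folding in the endoplasmic reticulum (ER), measured in mouse colon epithelium 24 hours after 1 dose of the heterocyclic amine PhIP, a mutagen formed in cooked meat. Members were found through the RefSeq accession that the array design gives each mouse probe, and 30 of the 33 had a probe, with 40 probes in all, among 15597 genes that had one. Of these, 28 members were measured well enough to test. Atf6, Pdia6 and Trib3 had no matched probe, and the probes of Calr and Xbp1 were found on none of the 8 arrays. All mice were male, 8 weeks old, humanized for CYP1A (hCYP1A) on a C57BL/6 background and fed AIN93M diet. The CYP1A enzymes start the activation of PhIP to a form that binds DNA. The 5 PhIP mice received 200 mg/kg of body weight once by gavage, the 3 PBS mice received PBS, and the crypt epithelium was scraped from each colon for 1 array per mouse. The labels give the aim as finding the genes that PhIP induces in this tissue.

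The ER folds secreted and membrane proteins, and in the colon mucus-secreting goblet cells and antibody-secreting plasma cells place a heavy load on it. When unfolded protein accumulates, the sensors Atf6, Ire1 (Ern1) and Perk (Eif2ak3) act through different routes. Atf6 and the spliced form of Xbp1, which Ire1 makes, switch on chaperones, folding enzymes and the machinery that removes misfolded proteins, largely through the ER stress response element (ERSE) in their promoters. Perk phosphorylates eIF2alpha, which lowers protein synthesis and raises translation of Atf4, an activator of Ddit3 (Chop), Trib3, Chac1, Asns and Ppp1r15a, and other kinases that sense amino acid shortage or haem can reach Atf4 without ER stress. The chaperones and the Atf4/Ddit3 genes are therefore set side by side below.

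The promoters of the chaperones are shown first, because they hold the element through which Atf6 and Xbp1 are known to act. Promoter windows came from RefSeq (GRCm38.p6), covering 250 bases before to 50 after each annotated start, and 30 of the 33 members had an entry. The ERSE was searched on both strands as CCAAT, then 9 bases of any kind, then CCACG. It occurred in 39 of 32851 promoter windows (0.119%) and in those of 8 of the 30 members. Of the 14 chaperones and folding enzymes with an entry, 7 held it, namely Hspa5, Hsp90b1, Canx, Calr, Pdia6, Dnajc3 and Creld2, and Hsp90b1 held 2 copies. The only other member with a match was Syvn1, of ER-associated degradation, and none of the 6 Atf4/Ddit3 genes had one. The matches are printed below 5′ to 3′ in the direction of the gene, with the element in capitals. Calr, Creld2 and the second copy of Hsp90b1 carry it in reverse, so that it reads CGTGG first.
Hspa5, chr2:34772017-34772051, plus strand, 65 bases upstream: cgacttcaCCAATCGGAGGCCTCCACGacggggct
Hsp90b1, chr10:86705630-86705664, minus strand, 212 bases upstream: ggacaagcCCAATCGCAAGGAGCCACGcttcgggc
Hsp90b1, chr10:86705525-86705559, minus strand, 107 bases upstream, reverse: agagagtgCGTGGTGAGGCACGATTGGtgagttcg
Canx, chr11:50325792-50325826, minus strand, 145 bases upstream: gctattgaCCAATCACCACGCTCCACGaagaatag
Dnajc3, chr14:118937819-118937853, plus strand, 105 bases upstream: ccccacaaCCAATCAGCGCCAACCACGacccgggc
Creld2, chr15:88819512-88819546, plus strand, 126 bases upstream, reverse: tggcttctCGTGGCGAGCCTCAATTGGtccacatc
Calr, chr8:84847067-84847101, minus strand, 162 bases upstream, reverse: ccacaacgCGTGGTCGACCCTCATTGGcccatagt
Pdia6, chr12:17266483-17266517, plus strand, 98 bases upstream: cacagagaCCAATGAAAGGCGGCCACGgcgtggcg
Syvn1, chr19:6046524-6046558, plus strand, 44 bases upstream: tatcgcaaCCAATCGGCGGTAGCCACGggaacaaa

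A second form, ERSE-II, was searched as ATTGG, then 1 base, then CCACG. It occurred in 12 of the 32851 windows (0.0365%) and in 2 members, Dnajb11, where it lies after the start, and Herpud1. That of Herpud1 is printed because this gene is counted with the degradation genes and not with the chaperones.
Herpud1, chr8:94386369-94386395, plus strand, 52 bases upstream: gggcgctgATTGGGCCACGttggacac

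The unfolded protein response element, searched as TGACG followed directly by TGG, occurred in 222 windows (0.676%) and in 1 member, Sec24d. The C/EBP-ATF element bound by Atf4, searched as TGATG, then 1 base, then AAT, occurred in 317 windows (0.965%) and in none of the 30 members with an entry. A bare CCAAT box, which is contained in every ERSE and, reversed, in every ERSE-II, occurred in 37.4% of windows and in 22 of the 30 members. A match is a description of these letters, and a window without one says nothing about the factor.

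**Figure D1:**
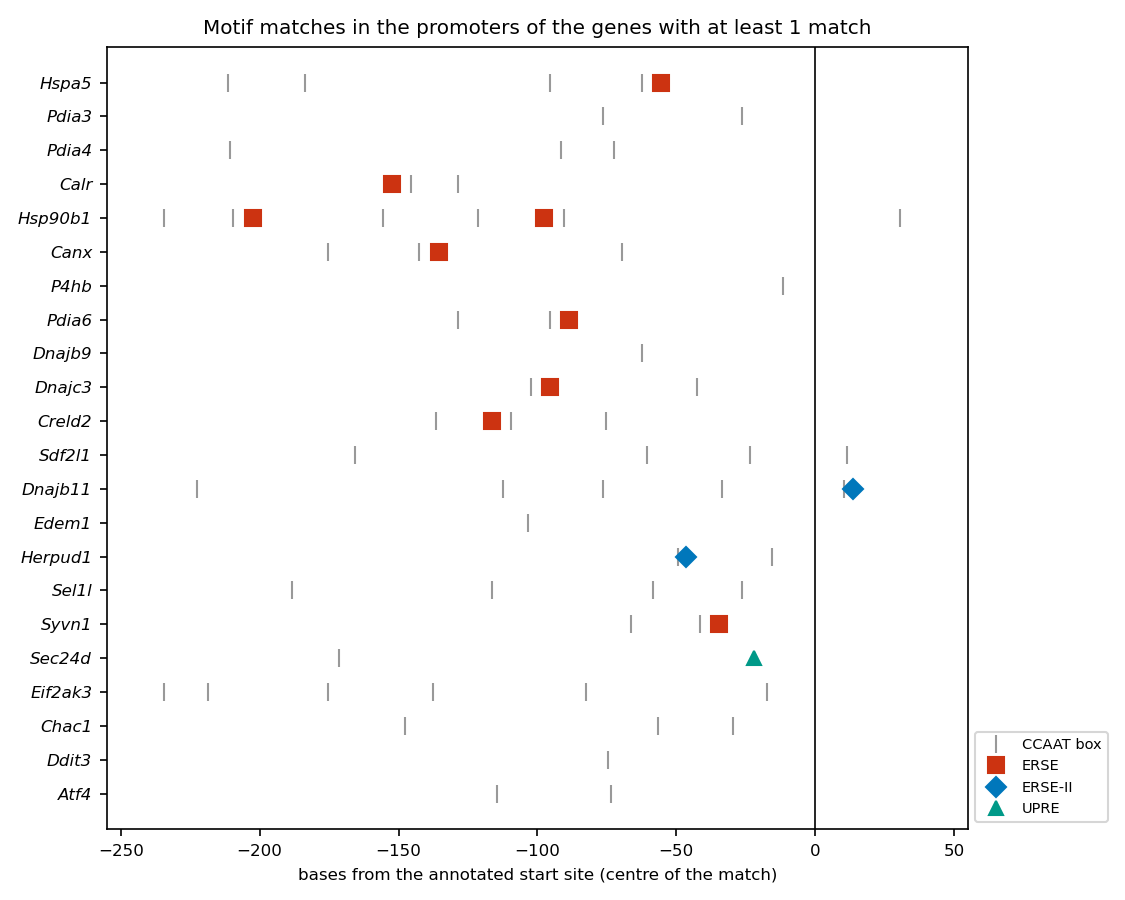
Positions of the 4 motifs that occurred in member promoters, in bases from the annotated start site (x axis), with 1 line per gene for the 22 members that had at least 1 match. The ERSE matches, drawn as squares, lie upstream of the start of 8 genes, 7 of them chaperones or folding enzymes, and each lies beside the CCAAT box it contains.

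The arrays carried 35078 mouse probes and differed in brightness. The scanner software found 53.77% to 57.13% of the probes on 7 arrays and 21.38% on the array of PhIP mouse 1, which alone was scanned at a photomultiplier gain of 700 in place of 650. That array stands apart, so each result is given on 8 arrays and on the 7 arrays without it. On it, 18 of the 28 tested members were found, and 10 were not, namely Hyou1, Canx, Pdia4, Dnajc3, Manf, Ero1l, Edem1, Herpud1, Ssr1 and Sec24d. The slide numbers fall into 2 ranges, with PBS mice 1 and 2 in one and PBS mouse 3 with all 5 PhIP mice in the other, and PBS mice 1 and 2 and PhIP mice 1 and 3 were on slides marked as re-dipped. Of the 8 columns of the deposited value table, 7 held the values of a scan plus a constant. However, its column for PhIP mouse 1 held the scan of PhIP mouse 2, and its column for PhIP mouse 2 matched no scan here. Scans are named here by the mouse they were deposited with. Whether that name or the table's is right for the scan of PhIP mouse 2 was not tested. Intensities are log2 values after quantile normalization, with a floor of 4.41, and a log2 fold change is the PhIP mean minus the PBS mean, with the standard error (SE) of the fit. The fit was limma's moderated test over all features, with Benjamini-Hochberg adjustment, and a gene was called at an adjusted p under 0.05. The labels number the mice but do not say how the arrays were prepared, so the spread between arrays covers mice and technical steps together.

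No member was called on 8 arrays or on 7. On 8 arrays 2 of 15854 features were called (0.0126%), and on 7 arrays 5 of 15842 (0.0316%). The lowest adjusted p of any member was 0.837 on 8 arrays and 0.320 on 7, the latter for Pdia4. By limma at an unadjusted p under 0.05 on 8 arrays, 3 of the 28 members, Hsp90b1, Dnajc3 and Sel1l, were on the side of lower intensity in PhIP mice, where 1.63% of all features were. On the side of higher intensity there was 1 member, Ddit3, beside 1.44% of all features. With 1 array left out, the lower side held no member without PBS mouse 1, PBS mouse 2 or PhIP mouse 2. It held at least 1 without any other array, and the higher side held none without PBS mouse 1. On 7 arrays the lower side held 4 members, Hsp90b1, Canx, Pdia4 and Dnajc3, beside 3.46% of all features, and the higher side Ddit3 alone, beside 5.81%.

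The signs of the members were uneven. On 8 arrays 23 of the 28 had a negative log2 fold change and their median was -0.50, beside 48.9% of all features negative and a median of 0.01. Without PhIP mouse 1, 19 of 28 were negative and the median was -0.21, beside 44.2% of all features negative and a median of 0.03. Scaling the arrays to a common percentile in place of quantile normalization moved the median of all features to 0.12 and left 18 of 28 members negative, beside 40.8% of all features, with P4hb, Dnajb9, Syvn1, Sec61b and Atf4 turned to positive. In whole epithelium, fewer cells of a type and less RNA per cell cannot be told apart.

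**Figure D2:**
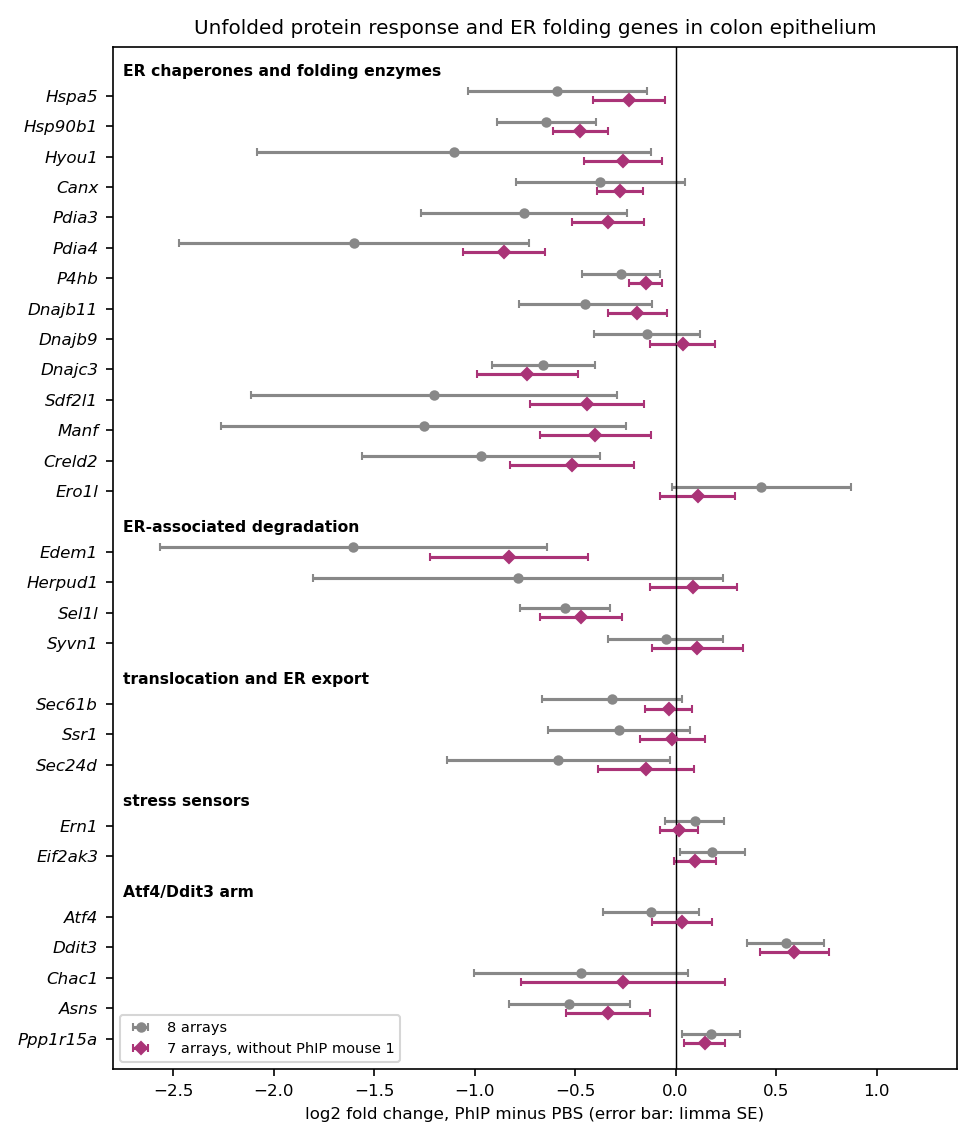
Log2 fold change of each tested member, PhIP minus PBS (x axis), with bars of 1 SE from limma, on 8 arrays (grey circles) and on the 7 arrays without PhIP mouse 1 (purple diamonds), grouped by role. The chaperones lie mostly left of 0 in both, most members move toward 0 without PhIP mouse 1, and Ddit3 stays right of 0. Canx is read by a different probe in each set, and P4hb, Dnajb9, Syvn1, Sec61b and Atf4 change sign if arrays are scaled to a common percentile.

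Among the ER chaperones and folding enzymes, 14 of 16 were tested. On 8 arrays 13 of the 14 were negative, with a median log2 fold change of -0.65, and on 7 arrays 12 were negative, with a median of -0.31. With arrays scaled to a common percentile 11 were negative and the median was -0.33. None was called.

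Hspa5 (BiP), the ER Hsp70 that holds the sensors inactive until unfolded protein draws it away, is the usual marker of this response, and its ERSE is printed above. Its log2 intensity was 12.73, 13.09 and 13.03 in the 3 PBS mice and 10.94, 12.28, 13.01, 12.85 and 12.74 in PhIP mice 1 to 5. The PhIP values ran lower, but 3 of the 5, those of mice 3, 4 and 5, lay within the PBS range. The log2 fold change was -0.59 (SE 0.45, adjusted p = 0.837 by limma) on 8 arrays and -0.23 (SE 0.18, adjusted p = 0.716) on 7.

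Hsp90b1 (Grp94), the ER Hsp90, is the member with 2 ERSE copies. Its log2 intensity was 14.09, 14.35 and 13.996 in the PBS mice and 12.83, 13.38, 13.80, 13.63 and 13.86 in the PhIP mice. Every PhIP array lay below every PBS array, as was true of 2.08% of all features on 8 arrays and 2.9% on 7. Its log2 fold change on 8 arrays came to -0.64 (limma SE 0.25, adjusted p = 0.837) and -0.47 (SE 0.14, adjusted p = 0.381) on 7.

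Pdia4, a protein disulfide isomerase that forms and rearranges disulfide bonds, had the lowest adjusted p of the members on 7 arrays. Its log2 intensity was 12.15, 12.41 and 11.99 in the PBS mice and 7.62, 10.78, 11.53, 11.38 and 11.60 in the PhIP mice. These groups did not overlap either, and PhIP mouse 1 lay far below the other 4, where its probe was not found. On 8 arrays its log2 fold change came to -1.60 (limma SE 0.87, adjusted p = 0.837) and -0.85 (SE 0.20, adjusted p = 0.320) on 7, which is a 1.81-fold lower mean on those 7 arrays. Hsp90b1 and Pdia4 were the 2 members of 28 whose PhIP values all lay below the PBS values on 8 arrays.

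Canx (calnexin), the membrane chaperone that holds glycoproteins until they fold, was read by 2 probes, and the brighter one differed between the array sets. On 8 arrays that probe read 8.30, 8.39 and 7.95 in the PBS mice and 6.57, 7.89, 8.21, 8.35 and 8.17 in the PhIP mice, with overlapping groups and a log2 fold change of -0.37 (SE 0.42). On 7 arrays the other probe was brighter, at 8.43, 8.66 and 8.53 in the PBS mice and 8.22, 8.41, 8.17 and 8.26 in PhIP mice 2 to 5. There the groups did not overlap and the log2 fold change was -0.28 (SE 0.11, adjusted p = 0.526 by limma), while the first probe gave -0.06 on the same 7 arrays. The call of non-overlap for Canx therefore holds for 1 of its 2 probes.

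Dnajc3 (p58IPK), a co-chaperone of BiP that also inhibits Perk, was dim on every array. Its log2 intensity was 5.78, 5.42 and 4.67 in the PBS mice and 4.94, 4.67, 4.53, 4.41 and 4.61 in the PhIP mice, against the floor of 4.41, where PhIP mouse 4 lay. PBS mice 1 and 2 were the 2 highest and PBS mouse 3 lay among the PhIP mice. The log2 fold change was -0.66 (SE 0.26, adjusted p = 0.837 by limma) on 8 arrays and -0.74 (SE 0.25, adjusted p = 0.453) on 7, and a floor understates the change of a gene this dim.

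**Figure D3:**
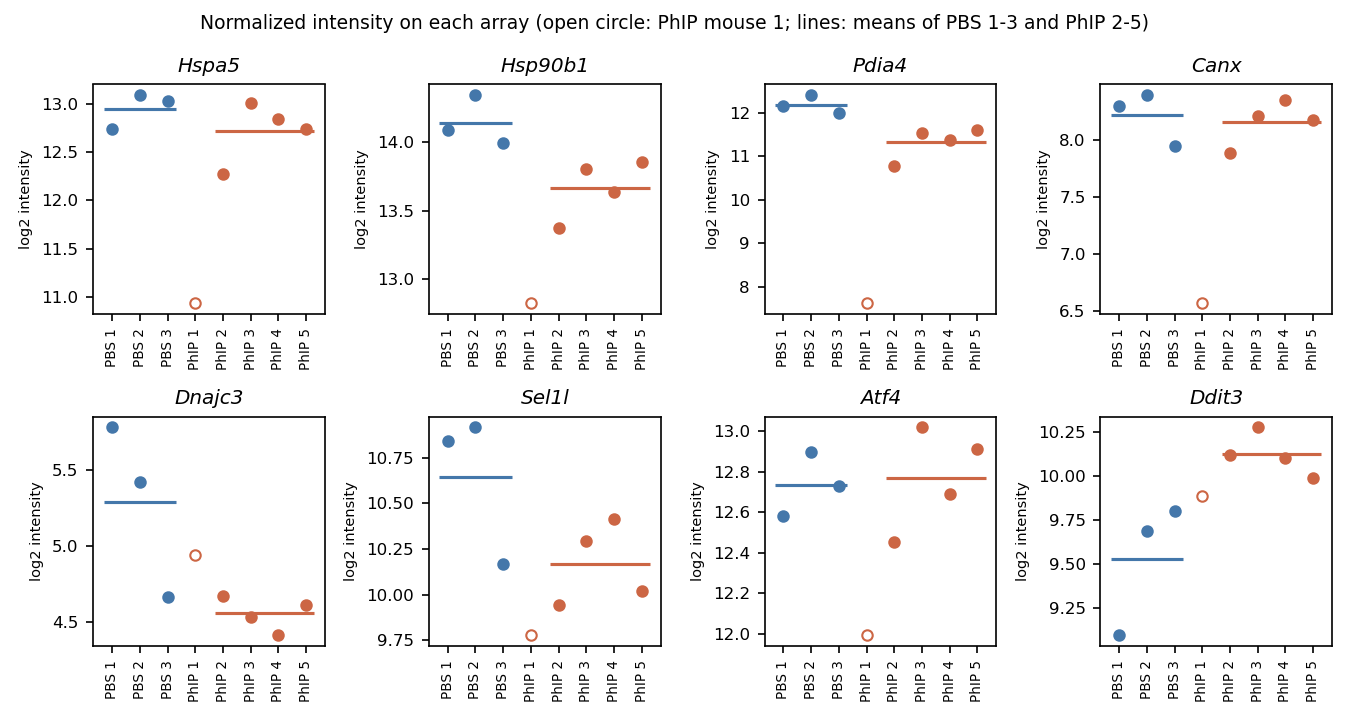
Normalized log2 intensity (y axis) of 8 members on each array (x axis), PBS mice in blue and PhIP mice in orange, with PhIP mouse 1 as an open circle. Lines are the means of the 3 PBS mice and of PhIP mice 2 to 5. Hsp90b1 and Pdia4 separate the groups downward and Ddit3 upward, while Hspa5, Canx, Dnajc3, Sel1l and Atf4 overlap.

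The remaining 9 chaperones and folding enzymes had smaller or noisier differences. Sdf2l1 and Manf, 2 small ER proteins that are induced with BiP, gave -1.20 (SE 0.91) and -1.25 (SE 1.01) on 8 arrays and -0.44 (SE 0.29) and -0.40 (SE 0.28) on 7. Hyou1 (Grp170), the nucleotide exchange factor of BiP, gave -1.10 (SE 0.98) and -0.26 (SE 0.20). Creld2, whose promoter holds an ERSE, gave -0.97 (SE 0.59) and -0.52 (SE 0.31). For these 4 genes, leaving out PhIP mouse 1 brought the log2 fold change closer to 0 and lowered its SE.

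Pdia3, which acts on glycoproteins bound by calnexin, gave -0.75 (SE 0.51) on 8 arrays and -0.34 (SE 0.18) on 7. P4hb, the main disulfide isomerase, gave -0.27 (SE 0.19) and -0.15 (SE 0.08), and Dnajb11, a BiP co-chaperone, -0.45 (SE 0.33) and -0.19 (SE 0.15). Dnajb9, the co-chaperone that helps BiP hold Ire1 inactive, gave -0.14 (SE 0.26) and 0.03 (SE 0.16). Ero1l (Ero1a), the oxidase that recharges the disulfide isomerases, was the 1 positive member of the group on 8 arrays, at 0.43 (SE 0.44), and gave 0.11 (SE 0.19) on 7. Its second probe gave -0.49 and -0.48, so the sign of Ero1l depends on the probe. All adjusted p-values by limma of these 9 genes were 0.612 or higher on both sets.

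Of the 4 genes of ER-associated degradation, which takes misfolded proteins out of the ER to the proteasome, none was called. Sel1l, the scaffold of the membrane ubiquitin ligase, read 10.84, 10.92 and 10.17 in the PBS mice and 9.78, 9.94, 10.30, 10.41 and 10.02 in the PhIP mice. PBS mice 1 and 2 stood above all other arrays and PBS mouse 3 lay among the PhIP mice. For Sel1l the fit gave -0.55 (limma SE 0.22, adjusted p = 0.837) on 8 arrays and -0.47 (SE 0.20, adjusted p = 0.539) on 7.

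Syvn1 (Hrd1), the ligase itself, whose promoter holds an ERSE, gave -0.05 (SE 0.29) on 8 arrays and 0.11 (SE 0.23) on 7. Herpud1, an adaptor of the same complex and the gene with the ERSE-II printed above, gave -0.78 (SE 1.02) and 0.09 (SE 0.22), a sign that turned with PhIP mouse 1, where it was not found. Edem1, a lectin that hands over glycoproteins for degradation, gave -1.60 (SE 0.96) and -0.83 (SE 0.39) by its brighter probe, but 0.56 (SE 0.42) and 0.34 (SE 0.31) by the other. The median of the 4 genes was -0.67 on 8 arrays and -0.19 on 7.

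The translocation and export genes were near 0 without PhIP mouse 1. Sec61b, of the channel through which proteins enter the ER, gave -0.32 (SE 0.35) on 8 arrays and -0.03 (SE 0.12) on 7. Ssr1, of the associated translocon complex, gave -0.28 (SE 0.35) and -0.02 (SE 0.16), and Sec24d, a cargo adaptor of the vesicles that leave the ER, -0.58 (SE 0.55) and -0.15 (SE 0.24). Second probes of Sec61b and Ssr1 gave -0.07 and -0.20 on 7 arrays.

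Of the sensors, only Ern1 and Eif2ak3 were tested, since Atf6 had no matched probe and the Xbp1 probe was found on no array. Ern1 (Ire1), the kinase and nuclease that splices Xbp1, gave 0.09 (SE 0.15) on 8 arrays and 0.02 (SE 0.10) on 7, and -0.53 and -0.10 by its second probe. Eif2ak3 (Perk) gave 0.18 (SE 0.16) and 0.09 (SE 0.10). These are mRNA levels, and neither the activity of the sensors nor the splicing of Xbp1 was measured.

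In the Atf4/Ddit3 arm 5 of 6 genes were tested and their signs were mixed, with 2 positive on 8 arrays and 3 on 7. The median log2 fold change was -0.12 on 8 arrays, 0.03 on 7 and 0.24 on 8 arrays scaled to a common percentile. None was called.

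Ddit3 (Chop), the transcription factor that links prolonged ER stress to cell death, was the member with the lowest unadjusted p on the higher side. Its log2 intensity was 9.10, 9.69 and 9.80 in the PBS mice and 9.89, 10.12, 10.28, 10.11 and 9.99 in the PhIP mice. All 5 PhIP arrays, PhIP mouse 1 among them, lay above all 3 PBS arrays, as was true of 3.67% of all features on 8 arrays and 5.98% on 7. PBS mouse 1 was the lowest array, and PBS mouse 3 lay just below the lowest PhIP array. The log2 fold change was 0.55 (SE 0.19, adjusted p = 0.837 by limma) on 8 arrays and 0.59 (SE 0.17, adjusted p = 0.392) on 7, a 1.46-fold and a 1.505-fold higher mean. Ddit3 did not move toward 0 when PhIP mouse 1 was left out, but without PBS mouse 1 it was 0.33 on the remaining arrays. Without PBS mouse 1 no member had an unadjusted p under 0.05 by limma on either side.

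Atf4, the activator of this arm, is controlled mainly through its translation, which arrays do not read. Its log2 intensity was 12.58, 12.90 and 12.73 in the PBS mice and 11.99, 12.45, 13.02, 12.69 and 12.91 in the PhIP mice, so that PhIP mice fell on both sides of the PBS range. The log2 fold change was -0.12 (SE 0.24) on 8 arrays and 0.03 (SE 0.15) on 7, and its second probe gave -0.56 and 0.08.

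Ppp1r15a (Gadd34), the phosphatase subunit that reverses the phosphorylation by Perk, gave 0.18 (SE 0.14) on 8 arrays and 0.14 (SE 0.10) on 7. Chac1, which degrades glutathione, gave -0.47 (SE 0.53) and -0.26 (SE 0.51). Its log2 intensity ran from 8.79 in PhIP mouse 2 to 11.04 in PhIP mouse 3, a wider range than among the PBS mice, which lay between 9.98 and 11.00. Asns, asparagine synthetase, gave -0.53 (SE 0.30) and -0.34 (SE 0.21), and -1.46 and -0.62 by its second probe. Ddit3 was thus the only one of the 5 with groups that did not overlap, and Asns and Chac1 had the opposite sign on both sets.

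Per array, the mean of the 14 chaperones was set against the mean of the 5 Atf4/Ddit3 genes, each relative to its PBS mean. The chaperone mean was 0.05, 0.13 and -0.18 in the PBS mice and -2.13, -0.69, -0.18, -0.21 and -0.21 in PhIP mice 1 to 5. PhIP mice 1 and 2 lay well below PBS, while PhIP mice 3, 4 and 5 lay at about the level of PBS mouse 3. The mean of the Atf4/Ddit3 genes was -0.10, 0.21 and -0.11 in the PBS mice and -0.53, -0.36, 0.37, 0.04 and 0.08 in the PhIP mice, on both sides of 0.

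Within an array, the chaperone mean minus the Atf4/Ddit3 mean was 0.15, -0.08 and -0.07 in the PBS mice and -1.59, -0.34, -0.55, -0.25 and -0.29 in the PhIP mice. The chaperones were thus lower relative to the Atf4/Ddit3 genes in each of the 5 PhIP mice than in any PBS mouse. The genes of both arms were chosen with results of these data known, so this order is a description and was not tested. On PhIP mouse 1 the probes of Hyou1, Canx, Pdia4, Dnajc3, Manf and Ero1l were not found. Those of the 5 Atf4/Ddit3 genes were all found there, so its -1.59 sets a partly undetected arm against a detected one. Ddit3, whose own groups did not overlap, is 1 of the 5 genes, and the order without it is not given here. The difference of the arm medians was -0.53 on 8 arrays and -0.34 on 7. The 5 genes do not move as 1 group, however. In PhIP mouse 3 each of the 5 was at its highest among PhIP mice 2 to 5. Relative to PBS, Asns there was not raised, at 12.50 against a PBS mean of 12.55, while the others lay above their PBS means.

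**Figure D4:**
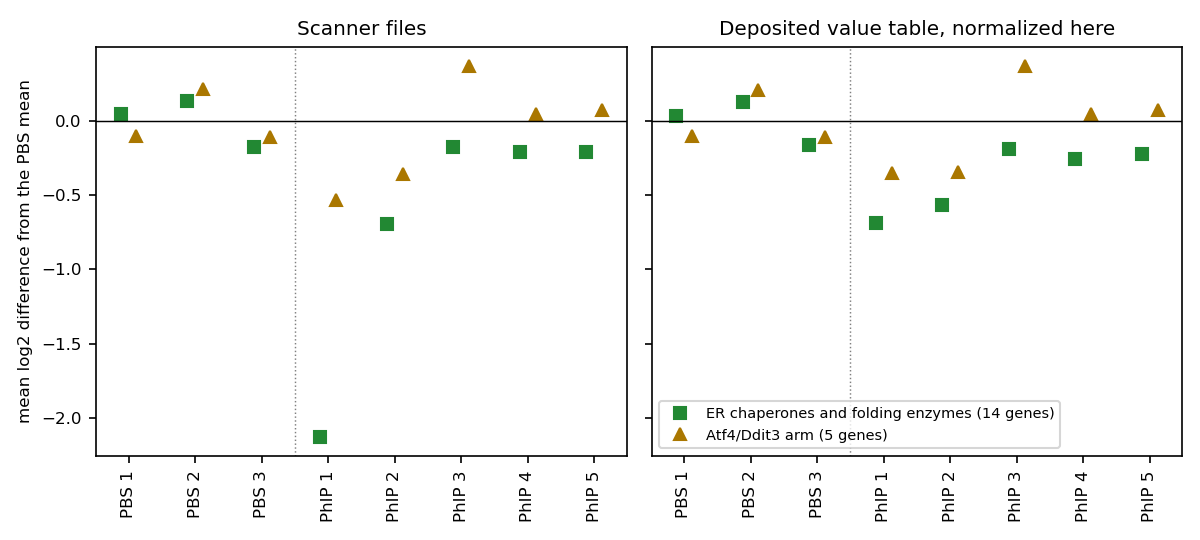
Mean log2 difference from the PBS mean (y axis) of the 14 chaperones and folding enzymes (green squares) and the 5 Atf4/Ddit3 genes (yellow triangles) on each array (x axis), from the scanner files (left) and from the deposited value table normalized here (right). In every PhIP array of both panels, and in PBS mice 2 and 3 by a smaller distance, the square lies below the triangle, and the square of PhIP mouse 1 lies at -2.13 in the scanner files. The columns labelled PhIP 1 and PhIP 2 in the right panel are those of the table, of which the first holds the scan of PhIP mouse 2.

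PhIP mouse 2 and PBS mouse 3 each weigh on these values. Among PhIP mice 2 to 5, PhIP mouse 2 was the lowest for 12 of the 14 chaperones and 19 of all 28 members. Without it and PhIP mouse 1 the chaperone median was -0.17. PBS mouse 3 was the lowest of the 3 PBS mice for 11 of the 14 chaperones and 20 of the 28 members. Set against PBS mice 1 and 2 alone, PhIP mice 2 to 5 gave a chaperone median of -0.41.

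Set against PBS mouse 3 alone, which is the one PBS array from the same slide number range as the PhIP arrays, they gave a chaperone median of -0.10, with 10 of 14 negative, and 0.11 for the Atf4/Ddit3 genes, with 5 of 5 positive. Over all 28 members the median was then 0.03, with 13 negative and 15 positive, beside 45.4% of all features negative and a median of 0.03. Hsp90b1 gave -0.34, Pdia4 -0.67, Creld2 -0.71 and Ddit3 0.32 in this setting. The other Atf4/Ddit3 genes gave smaller values, at 0.04 for Atf4, 0.08 for Ppp1r15a, 0.11 for Asns and 0.17 for Chac1. Sel1l gave -0.00, Edem1 -0.04 and Dnajc3 -0.11, against -0.71, -1.23 and -1.06 with PBS mice 1 and 2. Sec24d turned from -0.48 to 0.52. With 1 PBS array, the setting cannot separate the slide range from the mouse. With re-dipping as a block on the 7 arrays, the medians were -0.21 for the chaperones and 0.13 for the Atf4/Ddit3 genes, and Ddit3 gave 0.56.

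**Figure D5:**
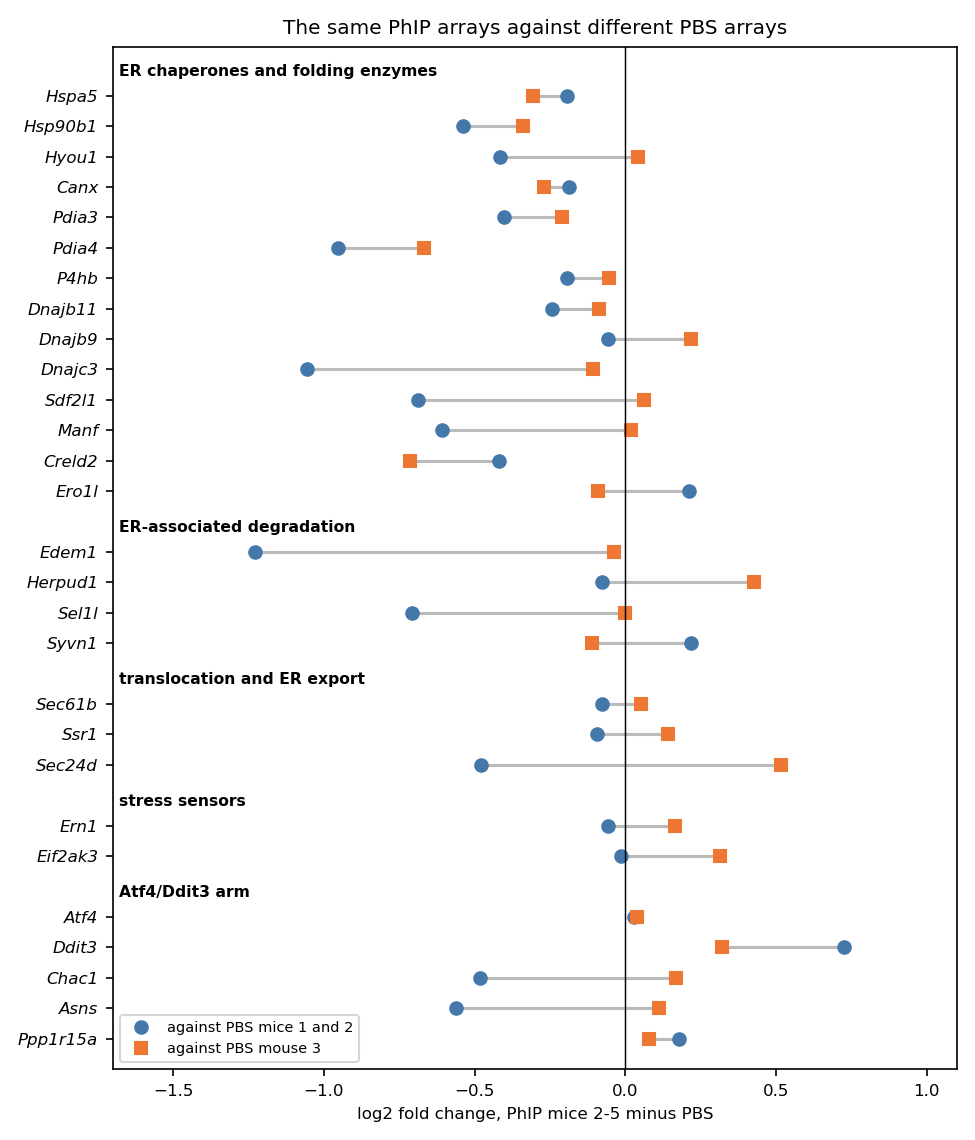
Log2 fold change of each tested member for PhIP mice 2 to 5 (x axis), against PBS mice 1 and 2 (blue circles) and against PBS mouse 3 (orange squares). Hsp90b1, Pdia4 and Creld2 lie left of 0 and Ddit3 right of 0 in both, while Sel1l, Edem1 and Dnajc3 lie near 0 against PBS mouse 3. Canx is read by a different probe in each.

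The deposited value table, turned back to intensities and normalized in the same way, gave a further set of 8 columns without the dim scan, in which PhIP mouse 2 may stand in 2 columns. There 12 of 15849 features (0.0757%) were called and none was a member. The chaperone median was -0.37 and that of the Atf4/Ddit3 genes 0.02. Hsp90b1 gave -0.51 (SE 0.13, adjusted p = 0.226 by limma), Pdia4 -0.92 (SE 0.19, adjusted p = 0.158) and Ddit3 0.60 (SE 0.15, adjusted p = 0.233). The groups of these genes did not overlap, and nor did those of Canx, at -0.28 (SE 0.11). Of all 15849 features, 1126 had groups that did not overlap, in either direction. The table's column for PhIP mouse 2, which matches no scan here, had a chaperone mean of -0.57 and an Atf4/Ddit3 mean of -0.34 relative to PBS, close to the scan of PhIP mouse 2, at -0.69 and -0.35. The table's columns for PhIP mice 1 and 2 correlated at 0.9855, while the column for PhIP mouse 2 correlated with the other 6 at 0.961 to 0.976. Columns of other PhIP mice correlated as highly, with those for PhIP mice 3 and 4 at 0.9861. The correlation alone therefore does not tell whether 2 columns hold 1 mouse. Whether the columns for PhIP mice 1 and 2 both come from mouse 2 was not tested. The table may thus hold 4 distinct PhIP mice in place of 5. Its SE and adjusted p-values would then be too small, and non-overlap would rest on 4 PhIP mice.

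Other genes of the pathway were read in the same way. Of 56 further genes of ER folding and quality control, 50 were tested, 39 were negative on 8 arrays and 34 on 7, and the median log2 fold change was -0.27 and -0.08. With arrays scaled to a common percentile 27 of the 50 were negative, beside 40.8% of all features. None was called. The genes named here had the 3 lowest p-values in each direction over this list and the next. On the higher side these included Creb3, an ER-anchored transcription factor, at 0.28 (SE 0.13) on 8 arrays and 0.22 on 7, and Tmed10, a cargo receptor between ER and Golgi, at 0.27 (SE 0.15) and 0.19. On the lower side were Fkbp11, an ER prolyl isomerase, at -0.65 (SE 0.28) and -0.43, and Agr2, a disulfide isomerase needed for mucin, at -0.61 (SE 0.27) and -0.54.

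Of 39 further genes of the Atf4 and amino acid response, 32 were tested, 21 were negative on 8 arrays and 20 on 7, and the median was -0.07 on both, again with none called. Scaled to a common percentile, 12 of the 32 were negative, beside the same 40.8%. Atf3, a stress-induced transcription factor that works with Ddit3, read 8.99, 9.42 and 8.94 in the PBS mice and 9.04, 9.99, 9.86, 9.35 and 9.62 in the PhIP mice. PhIP mice 2, 3 and 5 lay above all PBS mice, and the log2 fold change was 0.45 (SE 0.25, adjusted p = 0.837 by limma) on 8 arrays and 0.58 (SE 0.18, adjusted p = 0.428) on 7. Cth, an enzyme of cysteine synthesis, lay at the floor in all PhIP mice and in PBS mouse 3, so no fold is given.

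Markers of the cell types that a scrape can hold were read in the same fit. Of 10 goblet cell markers, 3 were tested (Agr2, Clca3 and Spdef), and all 3 were negative. Their summed intensity was 4798 to 8785 in the PBS mice and 3087 to 4954 in the PhIP mice (4126 to 4954 without PhIP mouse 1). The highest sum was that of PBS mouse 1, where Agr2 read 12.77, against 11.76 and 11.64 in PBS mice 2 and 3. Clca3 lay at the floor in PBS mouse 2 and in PhIP mice 1, 2 and 5. Of 11 plasma cell markers, 4 were tested, with a summed intensity of 1578 to 2162 in the PBS mice, 186 to 1649 in the PhIP mice and 642 to 1649 without PhIP mouse 1. Of the 4, 3 were negative and 1 positive on both sets, with a median of -0.38 on 8 arrays and -0.07 on 7. Derl3, a degradation gene of secretory cells, whose probe supplies most of that sum, gave -1.51 (SE 0.75) on 8 arrays and -0.93 (SE 0.36) on 7. Sdc1 gave -0.61 and -0.08, Cd79a -0.15 and -0.07, and Prdm1 0.24 and 0.32. Agr2 and Derl3 also stand in the list of further ER folding genes. The other goblet and plasma cell markers, Muc2, Tff3 and Igj among them, either had no matched probe or were not found on enough arrays.

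All 8 fibroblast markers were negative on 8 and on 7 arrays, with medians of -0.83 and -0.75 and a summed intensity of 26173 to 41043 in the PBS mice and 18945 to 24476 in the PhIP mice. With arrays scaled to a common percentile 7 of the 8 were negative. PBS mouse 3, the lowest PBS array for 20 of the 28 ER members, stood apart here too, with a fibroblast mean of 0.54 relative to PBS against -0.25 and -0.30 in PBS mice 1 and 2. For PhIP mice 2 to 5 the fibroblast median was -0.41, with 7 of 8 negative, against PBS mice 1 and 2, and -1.35 against PBS mouse 3. Of the 7 epithelial markers tested of 14, 4 were positive and 3 negative on 8 arrays, 5 positive and 2 negative on 7, and 6 positive with arrays scaled to a common percentile, with a median of 0.23 on 8 arrays and 0.08 on 7. Among the keratins, Krt8 gave 0.37 on 8 arrays and 0.35 on 7, Krt18 0.49 and 0.43, and Krt19 -0.15 and 0.08. Epcam gave -0.10 and 0.10, and Slc26a3, a chloride transporter of colonocytes, -0.97 and -0.25. Summed over the 7, the intensity was 33896 to 37432 in the PBS mice and 40776 to 44222 in the PhIP mice. Krt8, Krt18 and Krt19 supply most of that sum. Of the 7 smooth muscle markers 6 were negative on 8 and on 7 arrays, with medians of -0.31 and -0.17, and 3 with arrays scaled to a common percentile. Their summed intensity was 43127 to 52298 in the PBS mice and 21414 to 48119 in the PhIP mice, or 37383 to 48119 without PhIP mouse 1. None of these markers was called, and their part in the values of the ER genes was not tested.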

How the data were processed

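Total RNA was labelled as cRNA and read in 1 colour (Alexa-647), per the labels' protocols, and the arrays were scanned at 635 nm with GenePix Pro 4.1.1.4, per the file headers. The deposited scanner files give each spot's median intensity minus local background, on a linear scale and not normalized, and the spot flags are a quality score set in those deposited files. The deposited value table is on a log2 scale and equals the log2 of the scans plus 1 constant per column, where it matches. Its normalization is not stated in what was used here.

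Here intensities were quantile normalized, raised to a floor of 21.25 (percentile 5 of found values) and put on the log2 scale (R 4.3.3, limma 3.58.1). Probes found on at least 3 arrays entered, and control and bad spots did not. RefSeq tables (GRCm38.p6) named 23071 of 35078 probes with 1 gene and 12007 with none. A gene was its brightest probe. The fit compared 5 PhIP with 3 PBS mice over all features, 2-sided, with eBayes and its trend, and was tested on simulated data. The number of arrays limits the precision, and depth does not apply. Alternatives changed the normalization, background, filter, floor, probe rule, weights, blocks, arrays and source table.

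The members and lists were chosen with earlier results of these data known. Named genes were all members, and of the other pathway lists the 3 with the lowest p in each direction. Values by array were given for Hspa5, Hsp90b1, Atf4, Ddit3 and each member at an unadjusted p under 0.05. Protein sequences were not used here.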

Additional observations from a re-analysis of the deposited data

Results flagged for a closer look

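In the 5 PhIP mice, 10 of 30 values tested (the 28 members and the mean of each contrasted arm) had 1 array far from the other 4, and in all 10 that array was PhIP mouse 1. Chance gives about 1 in 20 independent groups such an array. These values share the same 5 arrays and the arm means contain the members, so the count is not a test. On the array of PhIP mouse 1 the log2 intensity of Hyou1 was 5.836, of Canx 6.572, of Pdia4 7.618 and of Sdf2l1 8.651. That of Manf was 6.76, of Herpud1 7.437, of Sec24d 7.334 and of Sec61b 11.3. Each of these lay below the other PhIP mice. That of Ero1l was 7.826, above them. The chaperone mean on that array was -2.128 relative to PBS. This array was scanned at another gain and found 21.38% of the probes. Of the 9 genes only Sdf2l1 and Sec61b were found on it.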

How the results depend on the processing

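No member was called in any of the 32 alternatives. Of 896 member values under them, 801 kept their sign and 95 turned it, the latter in 17 members, while 11 members, Hsp90b1, Pdia4, Hspa5, Dnajc3, Sel1l and Ddit3 among them, kept theirs throughout. In size, the smallest value under the 32 alternatives was -0.00060 for Sel1l, -0.016 for Dnajc3 and -0.085 for Hspa5. For Hsp90b1 it was -0.23, for Ddit3 0.27 and for Pdia4 -0.67. The cause of each change below was not tested.

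The number of features called was 2 on 8 arrays. It was 0 with the replicate block, with scaling to a common percentile, with the mean of the probes of a gene, within the shared slide range, within the re-dipped arrays and within those not re-dipped. It was 1 with the floor at percentile 10 or re-dipping as a block, 11 with array weights, 20 in the deposited value table and 12 in that table normalized here. Leaving arrays out gave 0 to 12.

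The chaperone median, -0.65 in the fit reported, was -0.84 with the replicate block, -0.33 with scaling, -0.31 with array weights, -0.95 within the re-dipped arrays, -0.14 within those not re-dipped, -0.28 in the deposited table and -0.37 in that table normalized here. On the arrays of 650 gain it was -0.21 with re-dipping as a block and -0.10 within the shared slide range, both chosen after seeing the data. Leaving arrays out gave -0.76, without PBS mouse 3, to -0.17, without PhIP mice 1 and 2. The median of the Atf4/Ddit3 arm, -0.12, was 0.24 with scaling, -0.34 with the mean of the probes, 0.080 with array weights, 0.09 in the deposited table, and 0.13 and 0.11 in the settings of 650 gain. Leaving arrays out gave -0.23 to 0.14. The difference of the arm medians, -0.53, was -0.31 with the mean of the probes, -0.39 with array weights, -0.71 within the re-dipped arrays, -0.16 within those not re-dipped, -0.37 in the deposited table, -0.39 in that table normalized here, and -0.34 and -0.21 in the settings of 650 gain. Leaving arrays out gave -0.64 to -0.28.

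With scaling to a common percentile, log2 fold changes turned in sign to P4hb 0.18, Dnajb9 0.064, Syvn1 0.23, Sec61b 0.026 and Atf4 0.24. With array weights, these were Dnajb9 0.035, Herpud1 0.075, Syvn1 0.13, Ern1 -0.022 and Atf4 0.080. With the mean of the probes of a gene, these were Ero1l -0.034 and Ern1 -0.22. With the slide range as a block, these were Dnajb9 0.046 and Sec24d 0.082. Within the shared slide range of 6 arrays, these were Dnajb9 0.045 and Sec24d 0.081. Within the arrays not re-dipped, these were Dnajb9 0.12, Sdf2l1 0.015, Ero1l -0.031, Edem1 0.16, Herpud1 0.39, Sec61b 0.099, Ssr1 0.081, Sec24d 0.48 and Asns 0.015. In the deposited value table, these were Dnajb9 0.15, Ero1l -0.0029, Herpud1 0.17, Syvn1 0.18, Sec61b 0.030 and Atf4 0.092. In that table normalized here, these were Dnajb9 0.070, Herpud1 0.062, Syvn1 0.098, Ern1 -0.029 and Atf4 0.021. On the arrays of 650 gain with re-dipping as a block, these were Dnajb9 0.18, Ero1l -0.00055, Herpud1 0.21, Syvn1 0.12, Ssr1 0.082, Sec24d 0.081, Atf4 0.11 and Chac1 0.13. On the arrays of 650 gain within the shared slide range, these were Hyou1 0.041, Dnajb9 0.22, Sdf2l1 0.062, Manf 0.020, Ero1l -0.090, Herpud1 0.43, Sec61b 0.052, Ssr1 0.14, Sec24d 0.52, Atf4 0.038, Chac1 0.17 and Asns 0.11. Leaving arrays out gave -0.23 to 0.14 for Atf4, -0.75 to 0.19 for Chac1, -0.26 to 0.15 for Dnajb9, -0.016 to 0.27 for Eif2ak3, -0.057 to 0.15 for Ern1, -0.062 to 0.54 for Ero1l, -1.11 to 0.23 for Herpud1, -0.92 to 0.048 for Sec24d, -0.43 to 0.055 for Sec61b, -0.39 to 0.12 for Ssr1 and -0.26 to 0.26 for Syvn1.

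Whether the replicate numbers pair the mice cannot be told from so few arrays. Deviations of same-numbered arrays correlated at -0.0878, 0.188 and -0.118, and those of differently numbered arrays at -0.2541 to 0.2573. The replicate block changed no call of a member. The deposited table turned back to intensities was also chosen after seeing the data. With 3 PBS arrays in 2 slide ranges, small differences are not detectable. Low signal limits the values of Dnajc3, and that of Edem1 on PhIP mouse 1, where it lay at the floor.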
